A study of Mus musculus with 9 samples.

Results

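The IL-6 family genes Il6, Lif, Il11, Il6st and Osmr, the feedback inhibitor gene Socs3, the IL-33 axis genes Il33 and Il1rl1, and Csf1 were followed in NIH/3T3 cells after UVA with and without α-arbutin. They were the 9 rows, of 56691 genes in the deposited table, whose gene symbol was one of these names, and each symbol matched 1 row. NIH/3T3 is an immortal line of mouse embryonic fibroblasts, labelled wild type, and all cells were grown in DMEM with fetal bovine serum. There were 3 groups of 3 libraries: cells given UVA at 10 J/cm2 and α-arbutin, a glycosylated hydroquinone (called co-treated cells here), cells given the same UVA dose alone, and control cells with no treatment named. The study asked whether α-arbutin limits UVA damage to these cells, DNA repair and collagen synthesis in particular. The titles of the UVA libraries read MOCK while their treatment label gives the UVA dose, and whether the control cells were sham-handled is not stated. No source used here gives the α-arbutin dose, the order of the treatments, the time to harvest or whether each library had its own culture, so p-values measure only the spread between these libraries.

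Cytokines of the IL-6 family signal through receptor complexes that contain gp130, the product of Il6st, and activate JAK kinases and the transcription factor STAT3. Fibroblasts make several of these ligands, among them IL-6, LIF and IL-11, and respond to oncostatin M through the receptor chain encoded by Osmr; Socs3 is induced by STAT3 and blocks signalling from gp130. IL-33 is a nuclear cytokine released from damaged cells that binds ST2, the product of Il1rl1, which exists as a membrane receptor and as a secreted decoy. Il1rl1 was first found as a growth-induced gene of mouse fibroblasts. Csf1 encodes the growth factor that keeps macrophages alive.

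Promoter sequences of these genes, 250 bases before to 50 after an annotated start, came from RefSeq on GRCm38.p6, a different build from the mm39 coordinates of the counts. All 9 genes had at least 1 sequence, and there were 12 in all. Those of Il6, Osmr and Csf1 are shown because these 3 genes fell most with UVA, those of Il33 because it rose most, and those of Il1rl1 because it was by far the most abundant. Il33 and Il1rl1 have 2 listed starts each, 20677 and 10059 bases apart, and counts per gene do not tell the transcripts of one start from those of the other. Capitals mark every match, on either strand, to the letters TTCNNNGAA (STAT), TGANTCA (AP-1), TGACGTCA (CRE), TTGCNNAA (C/EBP) or TATAAA (the core promoter box), or to an NF-kappaB motif that starts with GGG and, after 2 bases of any kind, ends with TTTCC. No match overlapped another.
Il6, chr5:30012864-30013163, plus strand: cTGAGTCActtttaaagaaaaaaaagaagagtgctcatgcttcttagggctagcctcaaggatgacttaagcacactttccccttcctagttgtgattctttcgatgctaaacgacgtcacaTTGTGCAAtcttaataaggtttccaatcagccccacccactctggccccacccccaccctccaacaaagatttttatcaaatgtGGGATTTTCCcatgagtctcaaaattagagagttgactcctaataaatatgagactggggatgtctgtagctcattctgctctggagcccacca
Osmr, chr15:6874264-6874563, minus strand: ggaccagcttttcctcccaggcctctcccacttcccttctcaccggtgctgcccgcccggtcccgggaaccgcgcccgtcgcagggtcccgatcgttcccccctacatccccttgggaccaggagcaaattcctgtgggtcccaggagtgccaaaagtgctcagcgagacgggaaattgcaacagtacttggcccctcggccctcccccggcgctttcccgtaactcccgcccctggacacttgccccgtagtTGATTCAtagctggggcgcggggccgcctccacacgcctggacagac
Csf1, chr3:107760420-107760719, minus strand: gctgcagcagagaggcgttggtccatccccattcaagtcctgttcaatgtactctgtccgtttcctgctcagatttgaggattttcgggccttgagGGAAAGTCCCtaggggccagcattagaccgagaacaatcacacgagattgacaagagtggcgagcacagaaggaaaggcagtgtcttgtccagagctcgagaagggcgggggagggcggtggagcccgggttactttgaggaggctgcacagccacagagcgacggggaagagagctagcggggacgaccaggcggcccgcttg
Il33 upstream start, chr19:29924863-29925162, plus strand: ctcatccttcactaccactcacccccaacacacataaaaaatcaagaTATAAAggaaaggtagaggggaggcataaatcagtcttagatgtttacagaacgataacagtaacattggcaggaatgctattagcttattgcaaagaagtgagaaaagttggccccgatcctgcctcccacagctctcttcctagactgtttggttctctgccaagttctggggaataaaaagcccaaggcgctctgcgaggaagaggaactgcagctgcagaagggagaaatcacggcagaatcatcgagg
Il33 downstream start, chr19:29945540-29945839, plus strand: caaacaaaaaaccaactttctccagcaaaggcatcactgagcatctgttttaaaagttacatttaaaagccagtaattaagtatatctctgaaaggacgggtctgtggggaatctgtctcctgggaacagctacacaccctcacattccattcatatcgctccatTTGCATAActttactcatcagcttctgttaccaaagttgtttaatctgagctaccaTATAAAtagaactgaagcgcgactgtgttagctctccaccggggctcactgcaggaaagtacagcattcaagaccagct
Il1rl1 upstream start, chr1:40429320-40429619, plus strand: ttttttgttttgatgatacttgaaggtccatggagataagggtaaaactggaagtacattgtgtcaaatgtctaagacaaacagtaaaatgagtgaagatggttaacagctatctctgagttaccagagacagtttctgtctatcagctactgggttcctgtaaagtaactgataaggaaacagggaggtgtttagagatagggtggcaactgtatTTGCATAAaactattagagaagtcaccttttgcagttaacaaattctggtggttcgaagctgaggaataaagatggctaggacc
Il1rl1 downstream start, chr1:40439379-40439678, plus strand: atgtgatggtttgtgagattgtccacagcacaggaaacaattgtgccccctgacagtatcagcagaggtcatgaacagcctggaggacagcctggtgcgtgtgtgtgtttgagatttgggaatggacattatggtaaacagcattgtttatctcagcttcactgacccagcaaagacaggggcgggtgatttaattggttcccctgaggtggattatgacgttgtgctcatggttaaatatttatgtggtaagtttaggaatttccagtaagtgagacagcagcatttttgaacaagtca

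The AP-1 letters stood in a promoter of 4 of the 9 genes, Il6, Lif, Il11 and Osmr, 1 promoter each of the 12, against 7.81% of all 32851 promoters in the table. Counted from the annotated start, the match began at position -249 in Il6, -228 in Lif, -98 in the downstream start of Il11 and 4 in Osmr. The NF-kappaB letters stood in 2 genes, Il6 at -44 and Csf1 at -154, against 1.63% of all promoters. The C/EBP letters stood in Il6, Il33 and Il1rl1 (10.8% of all promoters). TATAAA stood in Il33, at -203 from its upstream start and at -29 from its downstream start (13.6% of all promoters). The STAT letters stood in Socs3 at -154 (8.30%), and the CRE letters in 0 of the 9 (1.79%). Of the 4 genes with the AP-1 letters, Osmr was lower with UVA, Lif was higher and Il11 did not pass the test. Il6 was lower too, but its direction was fixed by the filter on low counts. Whether these letters had a part in the changes was not tested. These counts are of genes and the percentages are of promoters, so the units differ where a gene has 2 promoters (Il11, Il33 and Il1rl1). A match is a string of letters and not a measured binding site.

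Total counts ran from 16.3 to 20.86 in units of 1e6 per library. Levels below are FPKM, the deposited counts per 1e6 counts and per kilobase of exon, which can be compared between genes. Of the 8 fibroblast markers, all were tested, and their summed level was 6071 to 6334 counts per 1e6 (CPM) in co-treated, 6361 to 6645 in UVA and 8304 to 8557 in control libraries; 6 were lower and 1, Vim, was higher in UVA than in control cells. Of 7 immune markers, Cd3e had no counts in any library. The list summed to 4.63 to 5.67 CPM in co-treated, 4.86 to 7.20 in UVA and 4.70 to 4.99 in control libraries. Cd68 was higher (4.82 CPM in UVA and 3.05 in control cells) and Ptprc lower (0.14 and 0.95). Ptprc had 13 counts in co-treated, 7 in UVA and 54 in control libraries. Its mean passed the filter on low counts (0.564 CPM) in control cells alone, so its direction was fixed by the filter. Of 4 mast cell markers, Kit and Fcer1a had no counts in any library and Cpa3 had 1 count in all; the list's sum, 6.52 to 7.62 CPM in co-treated, 4.57 to 7.99 in UVA and 6.79 to 7.68 in control libraries, was almost all Gata2. Endothelial markers summed to 3.84 to 5.91 CPM in co-treated, 3.95 to 5.09 in UVA and 2.69 to 4.35 in control libraries, and adipocyte markers to 0.487 to 1.45, 0.925 to 1.16 and 1.39 to 2.24 CPM in the same order. Epithelial markers reached at most 0.387 CPM in any library. The part of these shifts in the results below was not tested, and in bulk RNA fewer expressing cells and less RNA per cell cannot be told apart.

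In control cells the 9 genes ran from percentile 11.5 (Il33) to 99.3 (Il1rl1) of the levels of all tested genes. Il1rl1 was the highest, at 286 ± 20.4 FPKM in co-treated, 279 ± 25.9 in UVA and 313 ± 11.6 in control cells (SD, n = 3), which placed it at rank 116, 129 and 96 among the 14151 tested genes in those groups. In control cells it was followed by Csf1 at 93.5 ± 0.80, Il6st at 45.5 ± 0.50, Socs3 at 14.3 ± 0.46 and Lif at 5.68 ± 0.37 FPKM, against a median of 5.70 for all tested genes. Osmr (3.71 ± 0.22) and Il11 (3.38 ± 0.18) were neighbours whose control libraries overlapped, and so were Il6 (0.48 ± 0.12) and Il33 (0.47 ± 0.03), at the low end. The order was different after UVA: Il6 was last, at 0.13 ± 0.03 FPKM in co-treated and 0.08 ± 0.10 in UVA cells, while Il33 was at 1.50 ± 0.36 and 0.98 ± 0.17. In co-treated libraries Il33 and Osmr overlapped (1.08 to 1.73 and 1.33 to 1.68 FPKM). The receptor gene Il1rl1 exceeded its ligand gene Il33 by an FPKM ratio of 203 ± 72.4 in co-treated, 292 ± 69.8 in UVA and 662 ± 59.2 in control cells (SD, n = 3).

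**Figure D1:**
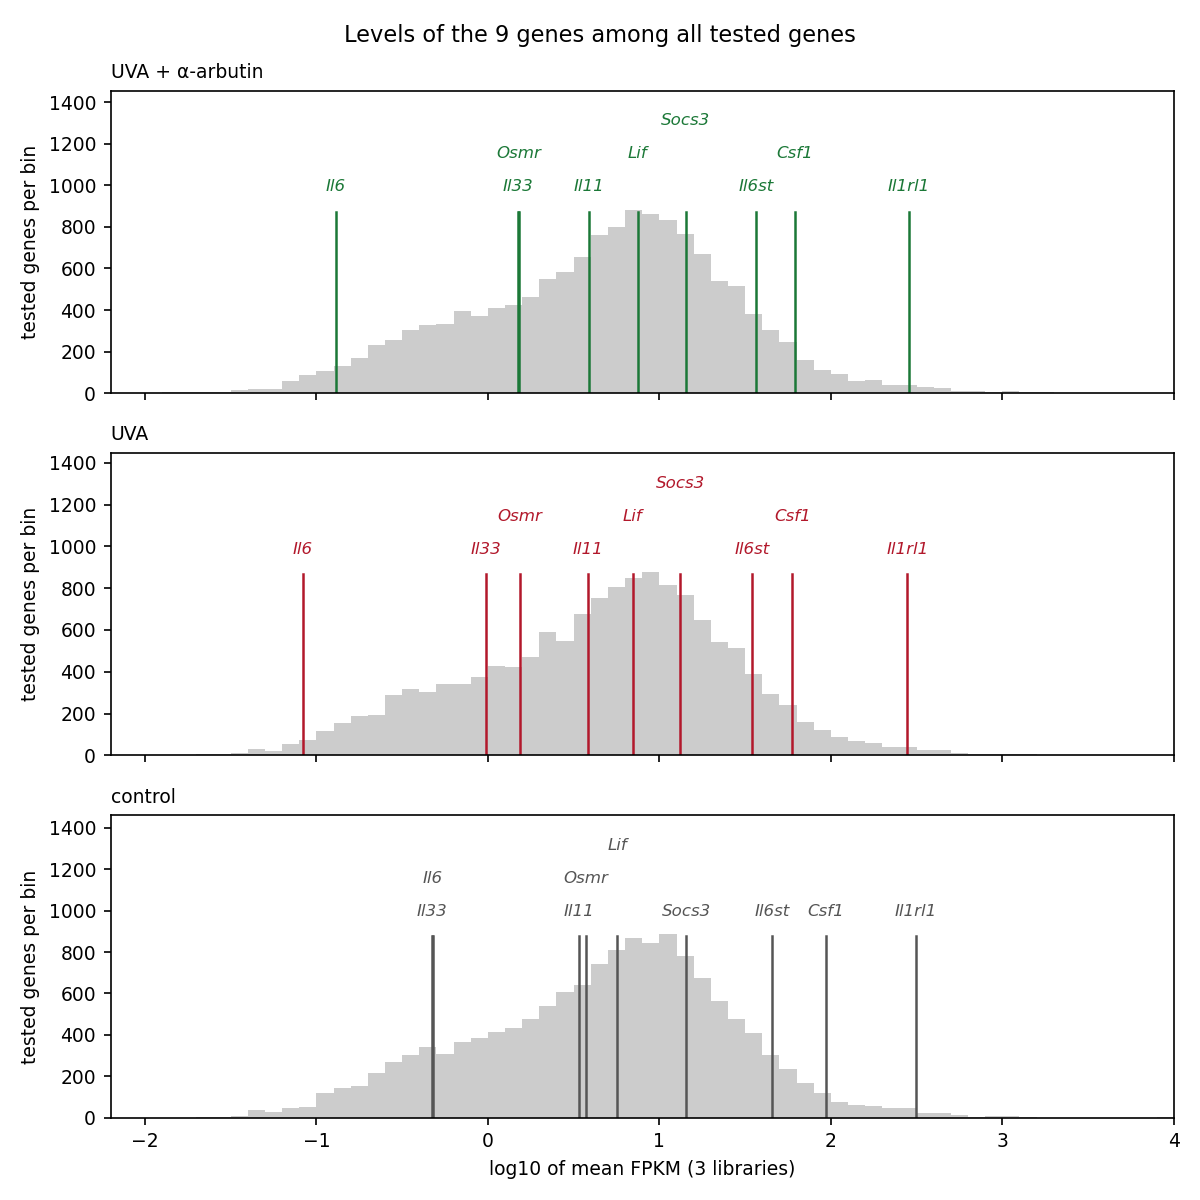
Distribution of mean FPKM (log10 axis, bins of 0.1) over the 14151 tested genes in each group, with vertical lines at the 9 genes. Il1rl1 lies at the far right in all groups, and Il6 and Il33, level in control cells, stand apart after UVA.

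Of the 9 genes, 2 rose and 5 fell in UVA compared with control cells, and 2, Il11 and Socs3, did not pass the test; over all 14151 tested genes 29.3% were called at an adjusted p below 0.05, 14.7% higher and 14.6% lower. The libraries of the groups did not overlap for 2 genes that were higher and 6 that were lower, Il6 among the lower ones. Over all tested genes these shares were 21.1% and 20.9% (42.0% in either direction). All 9 passed the filter on low counts, but Il6 reached it in the control libraries alone, so it was tested because it was higher there, and its direction was fixed by the filter; of the other 8 genes 6 were called. The median log2 fold change of the 9 genes, Il6 included, was -0.15, against 0.00 for all tested genes. The median of its size was 0.36, against 0.16. None of the 9 overlaps another gene of the table.

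Among the ligand genes, Lif rose slightly, Il6 was much lower at very low counts and Il11 did not pass. Lif, which encodes leukaemia inhibitory factor (ENSMUSG00000034394, chromosome 11, 4207557 to 4222514 on mm39), had 8.41, 7.50 and 6.50 FPKM in co-treated libraries, 6.98, 7.48 and 6.46 in UVA libraries and 6.10, 5.51 and 5.43 in control libraries. Every irradiated library lay above every control library, while co-treated and UVA libraries overlapped. UVA differed from control by 0.31 ± 0.09 on the log2 scale (SE; 95% interval 0.13 to 0.49; edgeR's quasi-likelihood test, adjusted p = 0.00737), and co-treated from control by 0.40 ± 0.09 (adjusted p = 0.00079). The first of these did not pass with limma on log2(FPKM + 1) (adjusted p = 0.0585) or log2(FPKM + 0.1) (adjusted p = 0.053).

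Il6 (ENSMUSG00000025746, chromosome 5, 30218112 to 30224979), the founding member of the family, had 6, 4 and 6 counts in co-treated libraries, 2, 8 and 0 in UVA libraries and 22, 24 and 17 in control libraries. All 6 irradiated libraries were below the 3 control libraries. Summed over libraries, its share of counts in UVA cells was 0.162 times that in control cells (95% counting interval 0.0741 to 0.318, which covers counting error only), with 10 and 63 counts. Il6 reached the filter on low counts in the control libraries alone, which fixed its direction. Its fitted values and their p-values are therefore given as a description. The fitted log2 fold change was -2.56 ± 0.59 in UVA (adjusted p = 0.00142) and -1.85 ± 0.54 in co-treated cells (adjusted p = 0.0117), each against control. Without UVA replicate 2, which held 8 of the 10 counts, the first value was -4.26 (adjusted p = 0.000186), and over all alternatives its adjusted p ran from 0.000174 to 0.0148. The second lost its call without control replicate 2 (adjusted p = 0.0547) or co-treated replicate 2 (adjusted p = 0.0599).

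Il11 (ENSMUSG00000004371, chromosome 7, 4775372 to 4785858), the ligand of IL-11 receptor alpha, had 3.96, 3.76 and 3.89 FPKM in co-treated libraries, 3.32, 4.01 and 4.24 in UVA libraries and 3.43, 3.53 and 3.18 in control libraries. UVA and control libraries overlapped, and the difference of 0.21 ± 0.13 on the log2 scale did not pass (adjusted p = 0.252), with a 95% interval of -0.06 to 0.48. Co-treated libraries lay above all control libraries, but the difference did not pass either (0.21 ± 0.13; adjusted p = 0.278).

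**Figure D2:**
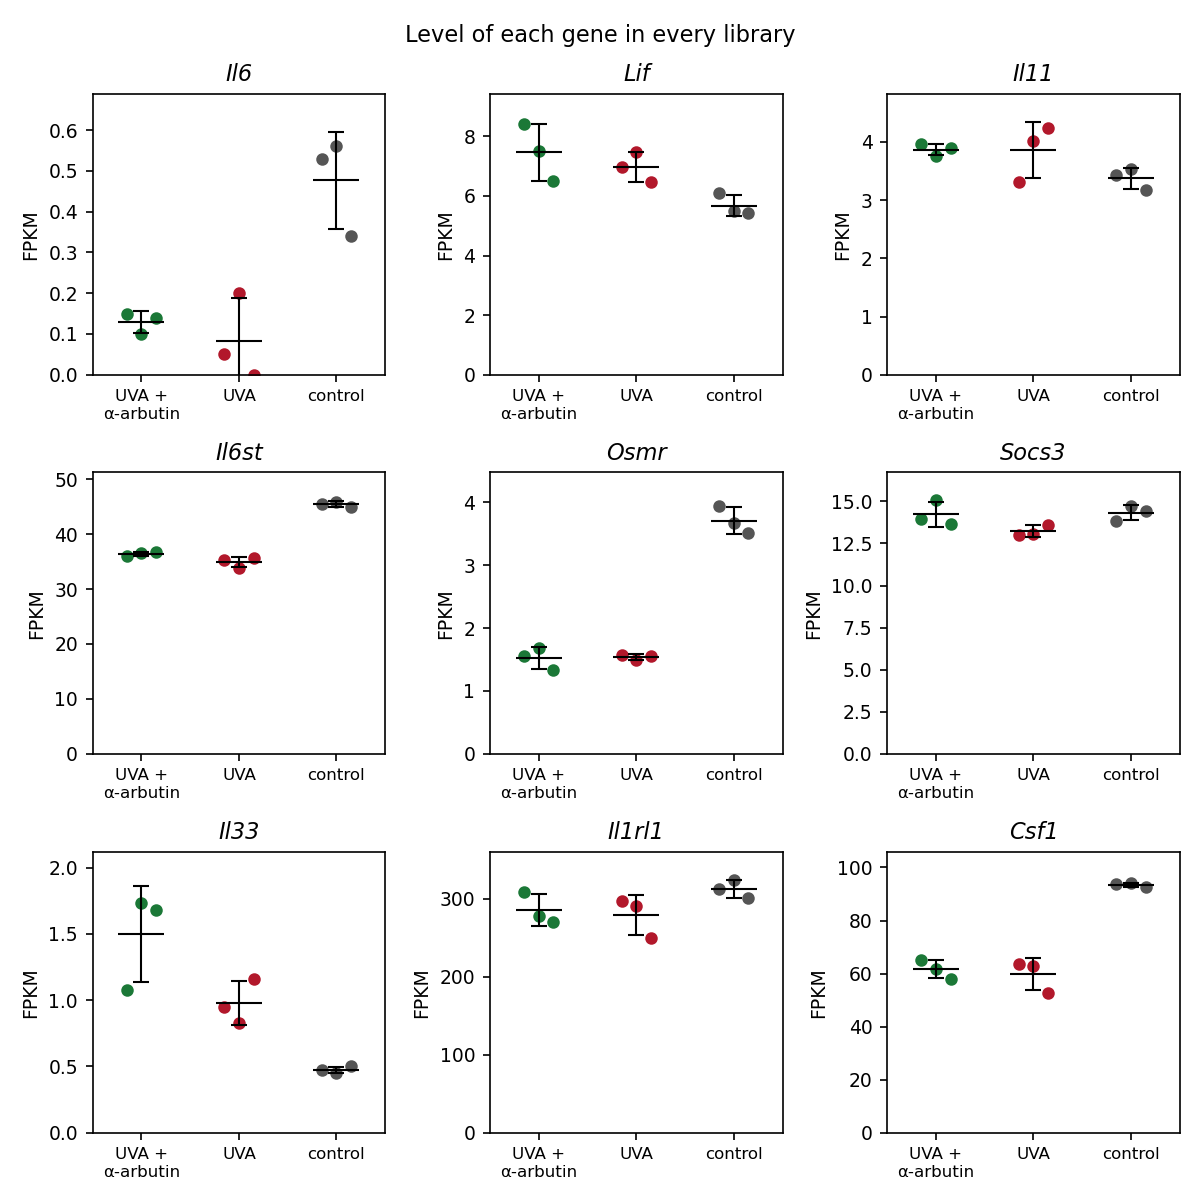
FPKM of the 9 genes in every library (points), with the group mean and SD (bars, n = 3; the lower arm for Il6 in UVA cells is cut off at 0). Irradiated and control libraries stand clear of each other for Il6, Lif, Il6st, Osmr, Il33 and Csf1, and co-treated and UVA libraries lie close together for most genes.

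Both receptor genes fell, Osmr more than the shared chain. Osmr (ENSMUSG00000022146, chromosome 15, 6843058 to 6904450), the oncostatin M receptor chain, had 1.55, 1.68 and 1.33 FPKM in co-treated libraries, 1.58, 1.49 and 1.56 in UVA libraries and 3.94, 3.68 and 3.51 in control libraries. The 6 irradiated libraries lay below the 3 control libraries with a wide gap. Its log2 fold change was -1.24 ± 0.08 in UVA (95% interval -1.41 to -1.08; adjusted p = 1.32e-12) and -1.28 ± 0.08 in co-treated cells (adjusted p = 1e-12), each against control, a level of 0.42 times control in UVA and 0.41 times control in co-treated cells. By p the first ranked 53 among the 14151 genes.

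Il6st (ENSMUSG00000021756, chromosome 13, 112600604 to 112646620) had 36.0, 36.6 and 36.7 FPKM in co-treated libraries, 35.4, 33.8 and 35.6 in UVA libraries and 45.6, 45.9 and 44.9 in control libraries. Replicates were tight, and the 3 control libraries were the highest. Against control, the difference on the log2 scale was -0.36 ± 0.04 in UVA (adjusted p = 6.58e-09) and -0.31 ± 0.04 in co-treated cells (adjusted p = 1.44e-07). The FPKM ratio of Il6st to Osmr was 24.2 ± 3.02 in co-treated and 22.6 ± 0.24 in UVA cells, against 12.3 ± 0.64 in control cells (SD, n = 3).

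Socs3 (ENSMUSG00000053113, chromosome 11, 117856905 to 117860873), the feedback inhibitor, had 14.0, 15.1 and 13.6 FPKM in co-treated libraries, 13.0, 13.1 and 13.6 in UVA libraries and 13.8, 14.7 and 14.4 in control libraries. All 3 UVA libraries were below the control libraries, but by little: the log2 fold change of -0.10 ± 0.06 did not pass (95% interval -0.23 to 0.03; adjusted p = 0.276). In co-treated against control cells it was 0.00 ± 0.06 (95% interval -0.13 to 0.13; adjusted p = 0.986).

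In the IL-33 axis the ligand gene rose while the receptor gene, already at a very high level, was slightly lower. Il33 (ENSMUSG00000024810, chromosome 19, 29902514 to 29938118) had 1.08, 1.73 and 1.68 FPKM in co-treated libraries, 0.95, 0.83 and 1.16 in UVA libraries and 0.47, 0.45 and 0.50 in control libraries. Every irradiated library was above every control library, and 2 of the 3 co-treated libraries were above all UVA libraries. Relative to control the log2 fold change was 1.67 ± 0.25 in co-treated cells (95% interval 1.17 to 2.17; adjusted p = 5.83e-06) and 1.07 ± 0.26 in UVA cells (95% interval 0.55 to 1.60; adjusted p = 0.00196). These rest on 225 counts in co-treated, 156 in UVA and 76 in control libraries. On the log2(FPKM + 1) scale the same values were 0.75 and 0.42, since the pseudocount shrinks changes at low levels, and both still passed with limma.

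Il1rl1 (ENSMUSG00000026069, chromosome 1, 40468730 to 40504575) had 309, 278 and 271 FPKM in co-treated libraries, 297, 290.5 and 249 in UVA libraries and 312, 324 and 301 in control libraries. The 3 UVA libraries lay below the control libraries, and 1 co-treated library lay within the control range. Its difference on the log2 scale was -0.15 ± 0.05 in UVA cells (95% interval -0.25 to -0.05; adjusted p = 0.0252) and -0.12 ± 0.05 in co-treated cells (adjusted p = 0.0799), each against control. The UVA call rested on single libraries: it ended without UVA replicate 3 (log2 fold change -0.07; adjusted p = 0.249), without control replicate 1 (adjusted p = 0.065) or 2 (adjusted p = 0.118), with DESeq2 (adjusted p = 0.188), and with limma on log2(FPKM + 1) (adjusted p = 0.114) or log2(FPKM + 0.1) (adjusted p = 0.11). The co-treated difference, conversely, passed without UVA replicate 3 (adjusted p = 0.0186) or co-treated replicate 1 (adjusted p = 0.00668), with no low-count filter (adjusted p = 0.00146) and with only the 2 groups fitted (adjusted p = 0.016). Counts per gene do not separate the membrane from the secreted form.

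Csf1 (ENSMUSG00000014599, chromosome 3, 107648364 to 107667785) had 65.0, 61.9 and 58.1 FPKM in co-treated libraries, 63.6, 62.7 and 52.8 in UVA libraries and 93.9, 94.1 and 92.6 in control libraries. All irradiated libraries were far below the closely grouped control libraries. Against control, co-treated cells differed by -0.59 ± 0.05 on the log2 scale (95% interval -0.70 to -0.49; adjusted p = 4.97e-10) and UVA cells by -0.63 ± 0.05 (95% interval -0.74 to -0.53; adjusted p = 1.21e-10), a level 35.5% below control.

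Setting co-treated against UVA cells asks what α-arbutin added to UVA. With edgeR 0 of the 9 genes passed, as with limma and with DESeq2, which gave no adjusted p for Il6 and Il33; 1, Il33, had an unadjusted p under 0.05, against 6.76% of all tested genes. Over all tested genes 0.0353% were called by edgeR (0.0283% higher and 0.00707% lower) and 0.0919% by DESeq2. For Il33 the difference, co-treated minus UVA on the log2 scale, was 0.60 ± 0.22 (95% interval 0.14 to 1.05; adjusted p = 0.642), and the libraries overlapped because co-treated replicate 1, at 1.08 FPKM, lay within the UVA range. With 1 library left out its value ran from 0.49 to 0.78, and its adjusted p over all alternatives that gave one from 0.385 to 0.914. Il6st and Socs3 were the 2 genes whose co-treated libraries all lay above the UVA libraries, and 0 genes had them all below, against 5.45% and 5.31% of all tested genes (10.8% in either direction), with log2 fold changes of 0.05 ± 0.04 (95% interval -0.02 to 0.13) and 0.10 ± 0.06 (95% interval -0.04 to 0.23).

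For the remaining genes, the intervals of co-treated against UVA cells reflect only the spread between these libraries. Osmr, co-treated against UVA, was at -0.04 ± 0.09 on the log2 scale (95% interval -0.22 to 0.15) and Csf1 at 0.04 ± 0.05 (95% interval -0.07 to 0.15). Neither interval reaches the size of the difference between UVA and control. For Il1rl1 the value was 0.03 ± 0.05 (95% interval -0.07 to 0.13) and for Lif 0.09 ± 0.09 (95% interval -0.08 to 0.27). Il11 was at 0.00 ± 0.13 (95% interval -0.27 to 0.26). For Il6, with 16 counts in co-treated and 10 in UVA libraries, the interval of -0.81 to 2.23 spans a fall and a several-fold rise.

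**Figure D3:**
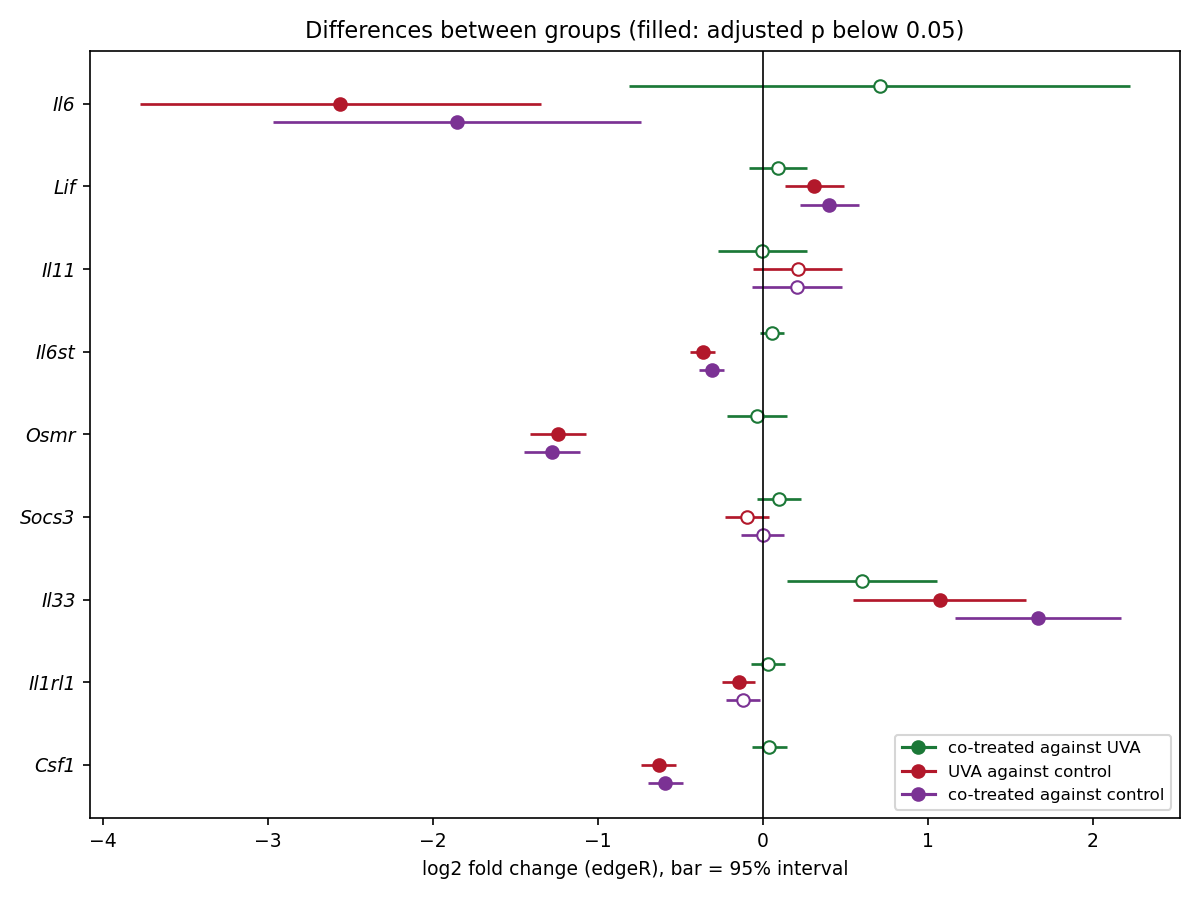
Log2 fold changes of the 9 genes in the 3 comparisons, with 95% intervals; filled points passed at an adjusted p below 0.05. Differences against control (red and purple) lie on the same side of 0 for every gene with a filled point, and no green point (co-treated against UVA) is filled.

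Against control, co-treated cells had 2 higher genes, Lif and Il33, and 4 lower, Il6, Il6st, Osmr and Csf1, of the 9, where 25.8% of all tested genes were called, 13.0% higher and 12.9% lower. Il6 passed the filter on low counts through the control libraries alone here too; of the other 8 genes 2 were higher and 3 lower. Libraries did not overlap for 3 higher genes (the 2 above and Il11) and 4 lower ones, Il6 among them, against 19.8% and 19.9% of all tested genes (39.7% in either direction). This comparison and that of UVA with control use the same control libraries, so they are not independent of each other.

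Genes whose levels followed these most closely over the 9 libraries were found by Pearson's r of log2(CPM + 0.5), among tested genes with a mean of at least 5 CPM. Il6 and Il33 themselves lie below that mean, so their values of r depend more on the added 0.5. The libraries share their 3 groups, so high values are common. Csf1 was most like Pja2, Bnc1 and Thy1 (r = 0.996, 0.996 and 0.995), with 346 genes above 0.95, and Osmr most like Adgrf1, Dipk1a and Bgn (r = 0.99 each), with 249. Il6st was nearest to Car6, Sptbn1 and Srpk2 (r = 0.99 each). Il33 was nearest to Ahnak2, Ube2c (r = 0.99 each) and Pabpc4 (0.97), and Il1rl1 to Enkd1 (0.98), Celf2 and Nrg1 (0.97 each). The nearest genes were Lynx1, Vezt and Chka for Il6 (0.98, 0.97 and 0.97), Arf3, Sgk1 and the pseudogene Rpl3-ps1, whose counts are uncertain because it copies another gene, for Lif (0.96, 0.95 and 0.95), Tada3, Hadh and Pla2g7 for Il11 (0.96, 0.95 and 0.94), and Fbxo25, Prmt9 and Rab6b for Socs3 (0.91, 0.90 and 0.90). Among the 9 genes themselves, Il6st, Osmr and Csf1 varied together (r of 0.93 to 0.97 in pairs), and Il33 ran opposite to Csf1 (-0.89) and Osmr (-0.88).

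A list of 54 further genes of these pathways, chosen with earlier results of these data known, held 41 tested ones. The shares of the list are therefore a description. Of the 41 genes, 10 were higher and 10 lower in UVA than in control cells, a share of 48.8% beside 29.3% of all tested genes. Their median log2 fold change was -0.06, against 0.00 for all tested genes. In co-treated against UVA cells 0 of the 41 passed and 3 had an unadjusted p under 0.05, a share near the 6.76% of all tested genes. In co-treated against control cells 9 were higher and 12 lower, a share of 51.2% beside 25.8% of all tested genes.

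Of the 4 other tested ligand genes of the family, 1 was higher and 1 lower in UVA than in control cells. Clcf1, the cardiotrophin-like cytokine, was at 23.5 FPKM in co-treated and 24.0 in UVA cells, against 14.0 in control cells, a log2 fold change of 0.80 ± 0.06 in UVA against control (adjusted p = 2.23e-11). Cntfr, a receptor chain for this cytokine, had no counts in any library, where a count of 0 allows a level of up to 0.144 to 0.184 CPM per library. Oncostatin M itself, Osm, the main ligand of the Osmr chain, also had no counts.

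Of the private receptor chains, Il6ra was at 28.3 CPM in co-treated and 29.2 in UVA cells, against 23.8 in control cells, and rose by a log2 fold change of 0.30 ± 0.08 in UVA against control (adjusted p = 0.00358). Il11ra1, at -0.72 ± 0.12 (adjusted p = 3.84e-05), fell; it overlaps 6 other genes, among them Galt on the same strand and Dctn3 on the other, so its counts are uncertain. Lifr, the LIF receptor chain, was at -0.06 ± 0.11 and did not pass.

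Of 8 tested JAK-STAT genes, 1 was higher and 2 lower in UVA than in control cells. Stat3, the gene of the family's main transcription factor, was at 7.10 FPKM in co-treated and 6.72 in UVA cells, against 10.7 in control cells, with a log2 fold change of -0.65 ± 0.06 in UVA against control (adjusted p = 4.92e-10); its end overlaps Stat5a on the other strand by 72 bases. Stat5b fell at -0.34 ± 0.06 (adjusted p = 0.000152), and the kinase gene Jak2 rose at 0.17 ± 0.06 (adjusted p = 0.0409). In co-treated against control cells Jak2 was at 0.15 ± 0.06, which did not pass (adjusted p = 0.0815). Its co-treated against UVA value was -0.02 ± 0.06 (adjusted p = 0.973). Jak1, the kinase bound to gp130, was at -0.10 ± 0.04 in UVA cells, which did not pass (adjusted p = 0.0639), and fell at -0.12 ± 0.04 in co-treated cells (adjusted p = 0.0167), each against control; co-treated against UVA it was at -0.03 ± 0.04 (adjusted p = 0.924). Among feedback genes, Socs1 rose at 0.81 ± 0.19 (adjusted p = 0.00129) and Pias3 fell at -0.27 ± 0.07 (adjusted p = 0.00683) in UVA against control cells. Neither passed in co-treated against control cells (Socs1 0.50 ± 0.19, adjusted p = 0.0523, and Pias3 -0.10 ± 0.07, adjusted p = 0.356). Cish passed only in co-treated cells (-0.61 ± 0.20, adjusted p = 0.0216), and was at -0.50 ± 0.19 in UVA cells (adjusted p = 0.0509). Whether these differences differ is the co-treated against UVA value, which passed for none of them. It was -0.30 ± 0.18 for Socs1, 0.17 ± 0.08 for Pias3 and -0.11 ± 0.21 for Cish.

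The list of STAT3-responsive genes did not move in 1 direction. Of 11 tested, 4 rose and 4 fell in UVA against control cells, with a median of 0.01. Bcl3, a nuclear IkappaB protein gene, fell at -1.22 ± 0.15 (adjusted p = 2.33e-07), whereas the survival gene Mcl1 rose at 0.26 ± 0.04 (adjusted p = 2.65e-05). Timp1 rose at 0.45 ± 0.08 (adjusted p = 5.98e-05), and overlaps Syn1 on the other strand, whose reads cannot be told apart without strand.

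Around the IL-33 receptor, its co-receptor gene Il1rap was at 11.7 FPKM in co-treated, 12.1 in UVA and 12.8 in control cells, with a log2 fold change of -0.06 ± 0.05 in UVA against control (adjusted p = 0.447). Il1rl1 exceeded it by an FPKM ratio of 24.4 ± 0.92 in co-treated, 23.0 ± 2.36 in UVA and 24.4 ± 1.15 in control cells (SD, n = 3). Of 8 tested genes of this signalling arm, the IL-1 receptor gene Il1r1 fell at -0.61 ± 0.08 (adjusted p = 5.64e-07) and the kinase gene Irak1 rose at 0.19 ± 0.04 (adjusted p = 0.000999). Il34, which encodes the other ligand of the CSF1 receptor, went opposite to Csf1: it was at 11.9 FPKM in co-treated and 11.1 in UVA cells, against 8.95 in control cells, and rose by 0.33 ± 0.09 (adjusted p = 0.00643). Of the protease genes that shed such receptors and ligands, Adam17 fell in co-treated against control cells (-0.16 ± 0.05; adjusted p = 0.0198), and did not pass in UVA against control (-0.10 ± 0.05; adjusted p = 0.124) or in co-treated against UVA cells (-0.05 ± 0.05; adjusted p = 0.892). Adam10 passed in 0 of the 3 comparisons.

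**Figure D4:**
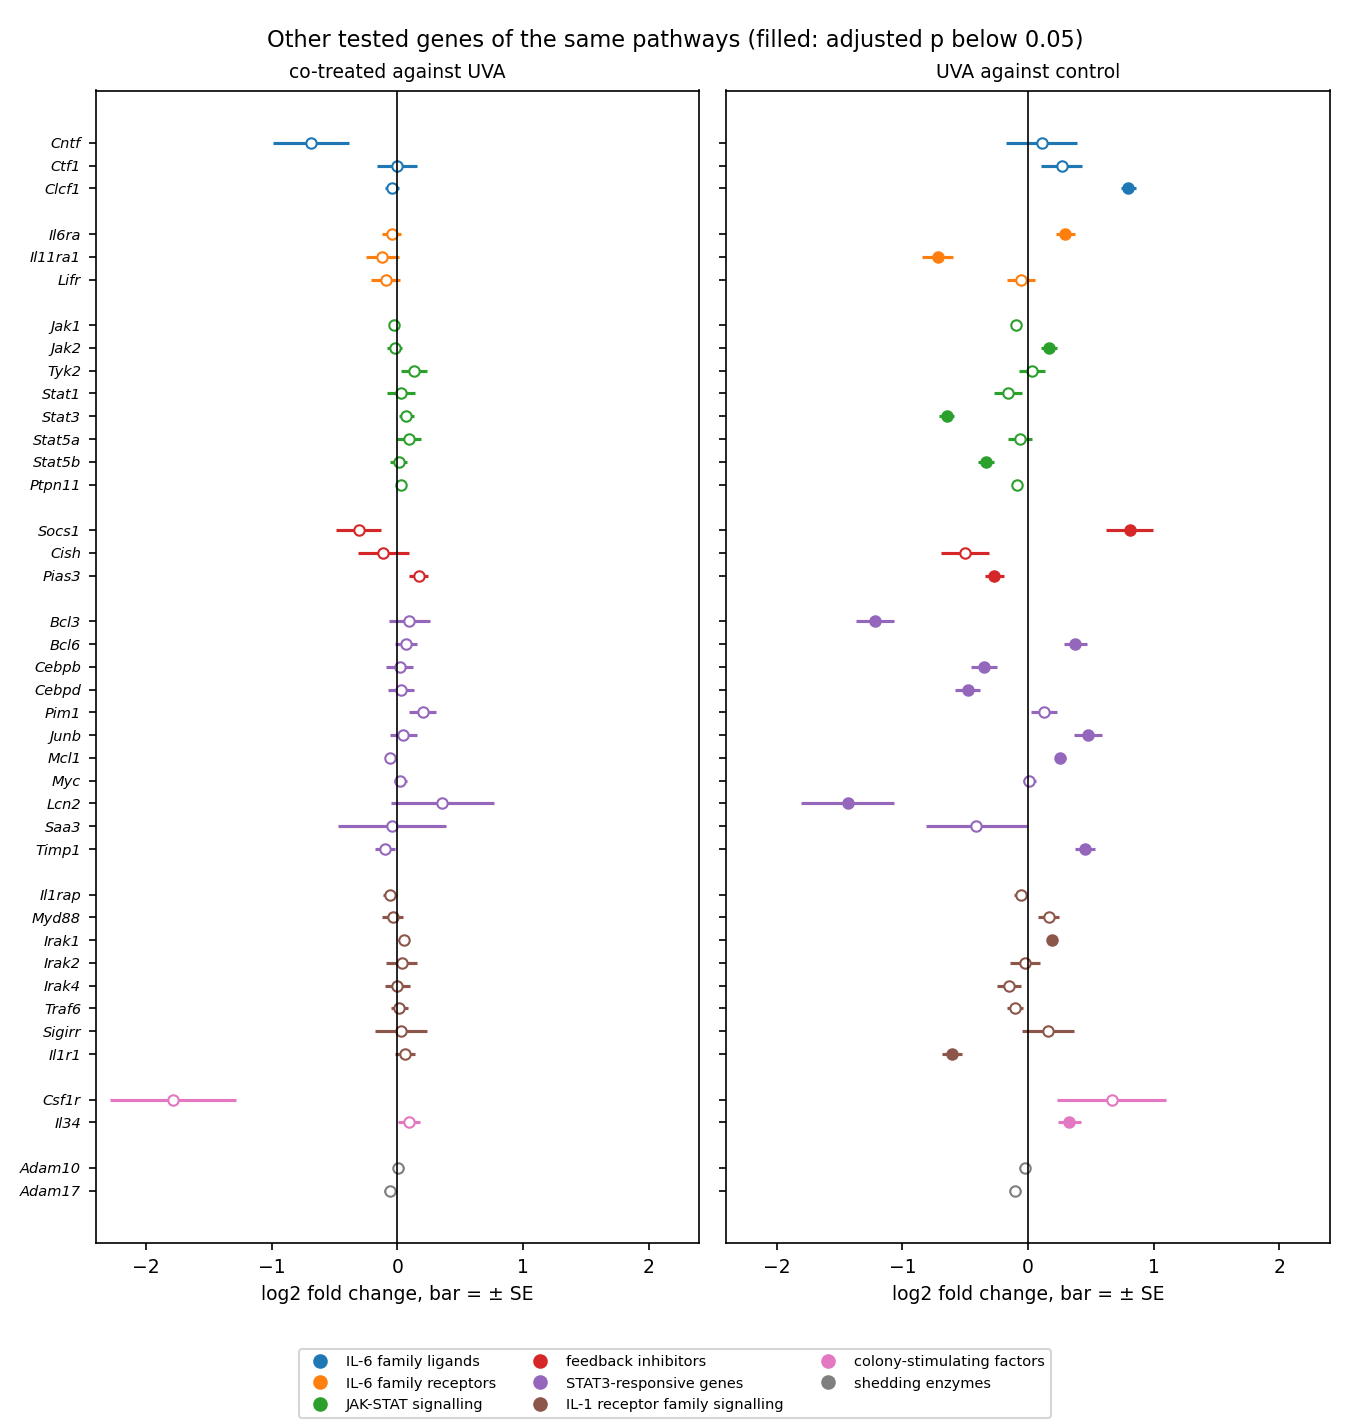
Log2 fold changes (points) with their SE (bars) of 40 of the 41 other tested pathway genes, by role, in co-treated against UVA cells (left) and UVA against control cells (right); filled points passed at an adjusted p below 0.05. On the right 19 points are filled, 10 above and 9 below 0, and on the left none is.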

How the data were processed

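Raw counts and FPKM per gene and library were deposited by the authors in 1 table, per the file headers, beside gene positions. HISAT2 2.2.1, HTSeq 0.6.1, bcl2fastq 2.20.0.422, cutadapt 1.9.1 and the build mm39 are listed, with no role, per the submitters' processing notes. No source used here states the annotation release or the strandedness. The deposited FPKM equals the count over exonic size and library total in 510219 of 510219 values, within 0.01. Columns prefixed NC were taken as control because the other prefixes match the other titles.

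Counts were tested with edgeR 4.0.16 in R 4.3.3: filterByExpr (14151 genes kept), TMM scaling, a quasi-likelihood fit on group with all 9 libraries, and two-sided F-tests with Benjamini-Hochberg adjustment over all tested genes at 0.05. Adjusted p-values are from this test unless another tool is named. The 17 alternatives used DESeq2 1.42.0, limma 3.58.1, other scalings, no filter, 2 groups only, the replicate number as a block, or 1 library fewer. The edgeR script was tested on simulated counts. Libraries of 1 group differed by more than sampling noise (chi-square per gene 2.29 to 5.18). The members and gene lists were chosen with earlier results of these data known. All 9 members are named, and of the pathway genes up to 3 called per role by smallest p, of which 1 is not reported here; Lifr, Jak2, Il1rap, Adam10 and the genes without counts were named after their values were seen. Likeness was Pearson's r of log2(CPM + 0.5), passing over genes with no or a provisional symbol or a mean under 5 CPM.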

Additional observations from a re-analysis of the deposited data

How the results depend on the processing

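Over 17 alternatives, the number of the 9 genes called stayed between 5 and 7 in UVA against control. It stayed at 0 in co-treated against UVA, and between 5 and 7 in co-treated against control. With 1 library left out it ran from 6 to 7, stayed at 0 and ran from 5 to 7. These counts include Il6, whose direction against control was fixed by the filter on low counts. Il6 was called in all 17 alternatives of UVA against control and in 15 of co-treated against control. For the 54 further pathway genes the counts with 1 library left out were 18 to 22, 0 and 16 to 22. Over all genes, calls with 1 library left out ran from 3213 to 4279, 1 to 22 and 2774 to 3874. The 5 calls of co-treated against UVA became 13 with DESeq2, 29 with no filter, 19 with the replicate block and 0 with limma on either FPKM scale; the cause was not tested. With 1 library left out they were 8 without UVA replicate 2, 22 without UVA replicate 3, 1 without co-treated replicate 2 and 2 without co-treated replicate 3. Of 458 values of single genes, 429 kept direction and side of the threshold, 10 lost the call, 5 gained it and 14 reversed. All reversals were of values within 0.1 of 0 and never called. In co-treated against UVA they were Il11 with library totals only (0.0027), limma on log2(FPKM + 1) (0.0086) and log2(FPKM + 0.1) (0.012) and, with 1 library left out, -0.10 to 0.072, Osmr (-0.12 to 0.053), Il1rl1 (-0.048 to 0.078) and Csf1 (-0.045 to 0.090); in co-treated against control, Socs3 (-0.047 to 0.026). DESeq2 gave no adjusted p for Il6 and Il33 in co-treated against UVA, and Il6 was filtered out there with 2 groups only. Il6 in UVA against control was at -0.45 with limma on log2(FPKM + 1).

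Correlations of deviations from group means ran from -0.01 to 0.08 between same-numbered libraries. Between UVA and co-treated libraries they were 0.045, 0.039 and 0.076 for the same number, and -0.071 to 0.026 for unlike numbers. All these values were small, and the numbers were not taken as pairs. With the replicate block 7 of the 9 genes were called in UVA against control and 0 in co-treated against UVA. In co-treated against control 7 were called, where Il1rl1 was the addition (adjusted p = 0.0113). Il6, whose direction was fixed by the filter, is among the 7 in both comparisons with control. At these depths Il6, with 10 counts in 3 UVA libraries, is the least precise gene.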

Other observations

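Several further cytokine genes of these pathways were at or near the limit of detection. Il1a had 2 counts in co-treated, 2 in UVA and 11 in control libraries, Il1b had 0, 0 and 2, and Csf2 had 9, 13 and 11. Csf3 had 6 in co-treated, 11 in UVA and 5 in control libraries. None of these was tested.

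In co-treated against UVA cells 3 of the 41 further pathway genes had an unadjusted p under 0.05, a share near the 6.76% of all tested genes, and 0 passed after adjustment; their values are given as a description. Csf1r, the receptor of CSF1, had 18 counts in co-treated, 66 in UVA and 43 in control libraries, with a log2 fold change of -1.79 ± 0.50 (edgeR, adjusted p = 0.418); it overlaps Hmgxb3, which had 9324 counts over all libraries, on the other strand. Cntf was at -0.69 ± 0.30 (adjusted p = 0.701) and Pias3 at 0.17 ± 0.08 (adjusted p = 0.701). These genes were chosen after their values were seen.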
